A study of Mus musculus with 46 samples.

Results

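The oligoadenylate synthetases are a family of interferon-induced proteins that sense double-stranded RNA, and 8 of the 53465 genes counted in mouse liver, kidney and cerebellum were taken as its members by gene symbol: Oas1a, Oas1b, Oas1c, Oas1g, Oas2, Oas3, Oasl1 and Oasl2. The rule names genes and uses no measured value. When an active member binds double-stranded RNA it joins ATP into short chains linked from the 2′ to the 5′ position. These chains act as a second messenger of the antiviral response and are soon cleaved again by other enzymes. The genes are switched on by type I interferon through a complex that holds STAT2 and IRF9, and RNA that ADAR1 has not edited is a known trigger of the family.

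Reads of RNA were counted per gene in 46 libraries from 16 C57BL/6 mice, aged 23 days after birth. All 16 had 1 Adar allele with the P195A change; Adar encodes ADAR1, which edits double-stranded RNA. In the 8 p150-negative animals (P195A_p150neg) the partner allele lacks the interferon-inducible p150 form of ADAR1, so any p150 they make is the changed one. In the 8 p150-positive animals (P195A_p150pos) the partner allele has p150. There is therefore no animal without P195A in either group. The labels name no driver that limits the change to a cell type, do not give sex, and do not say how the alleles were made. Each library was made from RNA of a whole organ, so fewer cells of a type and less RNA per cell cannot be told apart in any value given here. A library's unit is an animal and tissue, and per the labels the animals are separate.

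The members lie in 2 places on chromosome 5 of the mouse genome (GRCm38, GENCODE M21). Oasl2 and Oasl1 lie side by side on the plus strand at chr5:114896936-114937915. The Oas1, Oas2 and Oas3 genes stand 5792 kb further on, in a cluster of 10 genes that runs over 191 kb at chr5:120730333-120921652. Oas1e, Oas1f, Oas1h and Oas1d fill the cluster beside the members. Oas1c and Oas1b point away from each other, with 120 bases between their annotated starts. GENCODE lists Oas1b as a polymorphic pseudogene, since in C57BL/6 it has a premature stop, while wild mice have a full-length gene that protects against flaviviruses.

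Reads of near-identical copies can be shared or dropped in counting, and this bears on Oas1a and Oas1g. Of the 50-base words in Oas1a transcripts 57.6% also stand in those of Oas1g, and 45.7% of the words in Oas1g stand in another gene's. The share was 15.1% in Oas1c, most often with the overlapping gene Gm43069, 2.98% in Oas1b, 0.521% in Oas3, 0.138% in Oasl2 and 0 in Oas2 and Oasl1. Values for Oas1a and Oas1g singly are therefore uncertain, and their sum with Oas1b and Oas1c is given beside them. Oas1c, Oas2 and Oasl1 each overlap a predicted gene on the other strand (Gm43069, Gm43068 and Gm13822). Gm43069 holds 6.28% of the 50-base words in Oas1c, and such reads cannot be told apart, since the library kit does not mark strand. Oas2 and Oasl1 share no such word with another gene.

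Promoter windows from 250 bases before to 50 bases after the start were taken from RefSeq (GRCm38.p6) for the 6 members with an entry, all but Oas1b and Oas2. They are shown because 4 to 6 members rose in each tissue, and because the same letters recur in them. The motif searched was GAAANNGAAA, the core repeat of the interferon response element, on both strands. It stands in 3.443% of 32851 windows of 300 bases, and 2 or more matches stand in 0.225%. It stands in 4 of the 6 member windows, and in 0 of 2 windows of the other Oas1 copies with an entry, Oas1f and Oas1h. Capitals mark the matches, and each window is written along its gene. The windows of Oas1a at chr5:120907476-120907775, Oas1g at chr5:120887564-120887863, Oas1c at chr5:120812465-120812764 and Oas3 at chr5:120777610-120777909, all on the minus strand, hold a match. That of Oasl2, at chr5:114896684-114896983 on the plus strand, holds none and is printed for comparison.
Oas1a: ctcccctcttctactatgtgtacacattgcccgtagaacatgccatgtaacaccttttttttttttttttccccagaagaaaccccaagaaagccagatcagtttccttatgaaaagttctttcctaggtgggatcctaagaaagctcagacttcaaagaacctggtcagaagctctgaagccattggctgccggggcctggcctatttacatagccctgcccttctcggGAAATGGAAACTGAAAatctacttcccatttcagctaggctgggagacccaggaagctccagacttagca
Oas1g: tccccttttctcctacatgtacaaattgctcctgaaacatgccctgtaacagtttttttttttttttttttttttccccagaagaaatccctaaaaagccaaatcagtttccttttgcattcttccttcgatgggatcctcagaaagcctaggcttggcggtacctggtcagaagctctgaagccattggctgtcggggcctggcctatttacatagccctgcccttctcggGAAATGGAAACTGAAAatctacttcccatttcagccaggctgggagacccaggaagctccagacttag
Oas1c: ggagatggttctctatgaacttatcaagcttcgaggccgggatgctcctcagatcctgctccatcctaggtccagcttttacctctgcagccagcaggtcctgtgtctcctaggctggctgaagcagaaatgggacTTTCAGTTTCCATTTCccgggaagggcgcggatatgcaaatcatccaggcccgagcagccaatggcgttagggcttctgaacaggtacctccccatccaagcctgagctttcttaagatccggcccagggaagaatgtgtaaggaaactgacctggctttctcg
Oas3: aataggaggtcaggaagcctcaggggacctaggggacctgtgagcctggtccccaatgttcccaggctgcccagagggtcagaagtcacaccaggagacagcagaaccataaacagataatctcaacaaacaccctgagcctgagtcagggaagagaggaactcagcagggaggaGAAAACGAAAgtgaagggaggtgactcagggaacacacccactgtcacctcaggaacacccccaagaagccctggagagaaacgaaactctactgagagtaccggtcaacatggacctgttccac
Oasl2: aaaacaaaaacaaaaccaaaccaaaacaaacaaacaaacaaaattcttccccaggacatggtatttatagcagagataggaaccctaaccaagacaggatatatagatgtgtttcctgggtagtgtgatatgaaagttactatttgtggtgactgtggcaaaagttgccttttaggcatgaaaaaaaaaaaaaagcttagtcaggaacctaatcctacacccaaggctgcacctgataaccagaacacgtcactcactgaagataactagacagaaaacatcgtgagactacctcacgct

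In Oas1a and Oas1g a pair of overlapping matches runs from 20 to 5 and from 18 to 3 bases before the start. Both lie in a run of 73 identical bases, the longest that their windows share. In the Oas1c window the pair is on the other strand, that of Oas1b, and its letters there are the same over 19 bases as in Oas1a and Oas1g. Counted from the GENCODE start of Oas1b these matches lie 22 to 7 bases before that gene. Oas3 has a single match, 75 to 66 bases before its start, and the Oasl1 and Oasl2 windows have none. A match is a description of letters and not of binding, and its absence from a window says nothing of a factor. The runs are printed to show what the copies share.
Shared by Oas1a and Oas1g: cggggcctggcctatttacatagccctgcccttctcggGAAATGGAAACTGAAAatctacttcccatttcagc
Shared by Oas1a, Oas1g and the other strand of Oas1c: cggGAAATGGAAACTGAAA

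**Figure D1:**
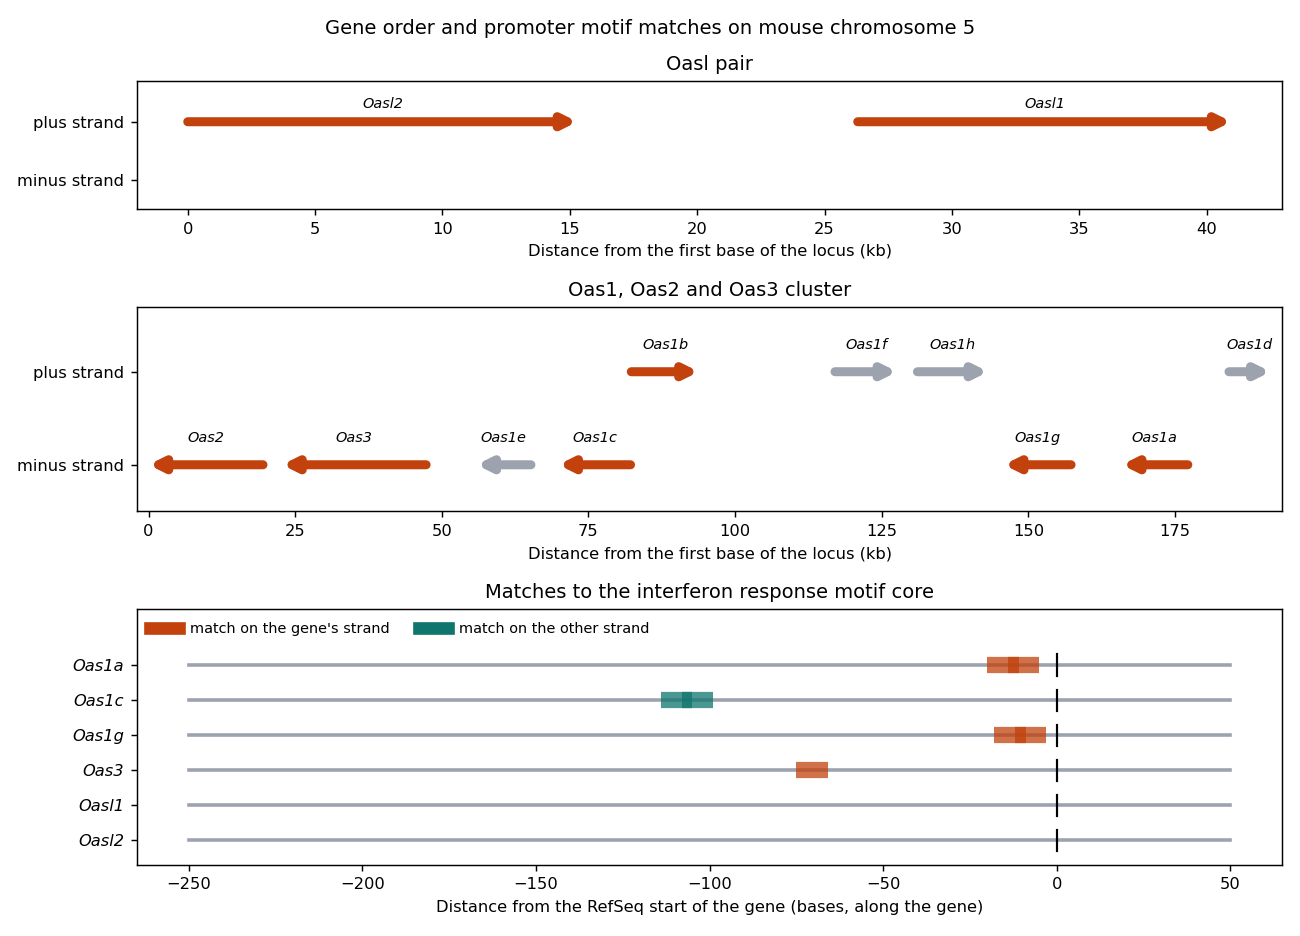
The top and middle panels plot gene order at the Oasl pair and at the cluster, in kb from the first base of each locus, with members in orange and the other copies in grey. The bottom panel plots matches to GAAANNGAAA in the RefSeq windows, in bases from each start, and shows the overlapping pairs close before Oas1a and Oas1g, the pair on the other strand before Oas1c and the single match before Oas3.

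Of the 46 libraries, 41 were used. The other 5 held at most 0.825% of the median level of the identity genes of their labelled tissue, where the 41 used held at least 59.8%, and they were left out: the libraries labelled liver and kidney of animal 2, kidney of animals 11 and 12, and cerebellum of animal 7. That left livers of 7 p150-negative and 7 p150-positive animals, kidneys of 5 p150-negative and 7 p150-positive animals, and cerebella of 8 p150-negative and 7 p150-positive animals. Totals ran from 269213 to 6237043 counts, with a median of 2948878. In the shallowest, the p150-negative kidney library of animal 3, 3 counts correspond to 11.1 CPM (counts of a gene scaled to a common library total), the limit that a count of 0 allows. In the p150-negative cerebellum library of animal 11, with 944811 counts, this limit is 3.18 CPM. These limits cover counting error only. Abce1, a partner gene described below, had 0 counts in the kidney library of animal 3, against a median of 156 CPM in p150-negative kidneys. A 0 in that library therefore does not place a level under 11.1 CPM, and its other values are also uncertain. In the cerebellum library of animal 11 Abce1 was at 19.1 CPM, against a median of 157 CPM in p150-negative cerebella.

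The p150-negative cerebellum library of animal 2 went against its label in the genes described here. Oasl2 had 0 CPM in it, at 5467627 counts, against 257 to 482 CPM in the other 7 p150-negative cerebella and 1.12 to 15.0 CPM in the p150-positive ones. It was below every other p150-negative cerebellum in 5 of the 8 members and in 6 of 12 genes of interferon signalling. In 5 of the 8 and in 5 of the 12 it lay within the p150-positive range. Both other libraries of that animal are among those left out. Genotype differences of members in cerebellum are therefore given with and without it; leaving it out was chosen after its values were seen.

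The summed level of the 8 members was higher in p150-negative animals in all 3 tissues. In liver it averaged 348 ± 166 CPM in p150-negative and 54.0 ± 21.9 CPM in p150-positive animals (SD, n = 7 each). The 5 p150-negative kidneys averaged 395 ± 121 CPM, against 56.5 ± 25.9 CPM for the 7 p150-positive kidneys. The 8 p150-negative cerebella averaged 417 ± 201 CPM, or 475 ± 123 CPM without that of animal 2, against 15.4 ± 7.14 CPM for the 7 p150-positive cerebella. The lowest p150-negative sums were 137 CPM in liver and 232 CPM in kidney, above the highest p150-positive sums of 99.3 and 96.2 CPM. In cerebellum the groups were apart only without animal 2, whose sum was 7.86 CPM, against at least 363 CPM in the other p150-negative and at most 24.9 CPM in the p150-positive libraries.

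**Figure D2:**
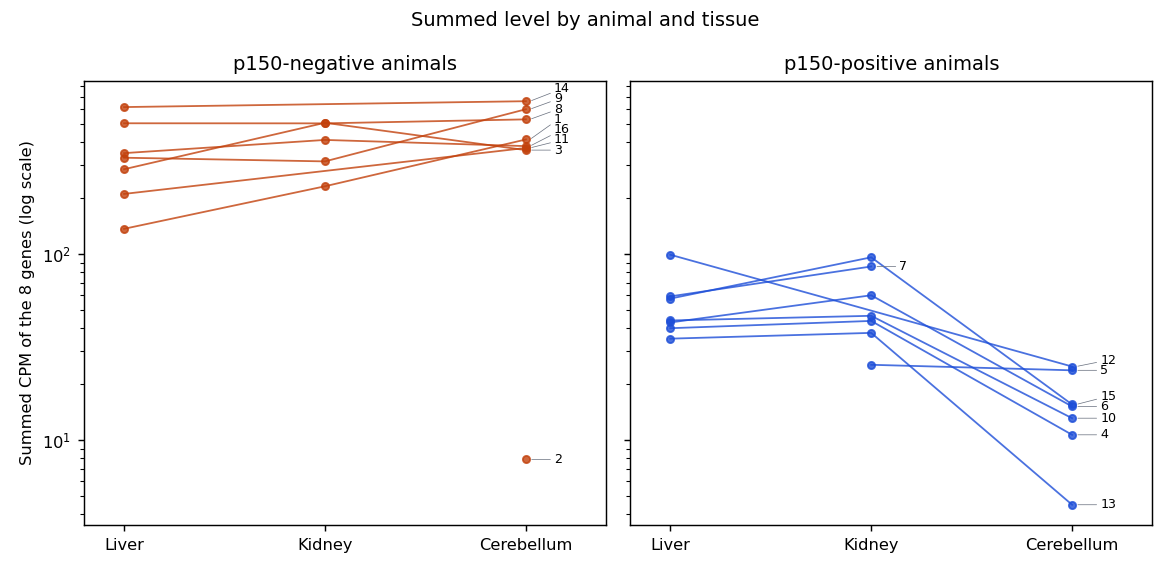
The summed CPM of the 8 genes (log axis) is plotted for each animal, by tissue, with p150-negative animals in the left and p150-positive animals in the right panel, lines joining libraries of an animal and numbers naming it. Apart from animal 2 the p150-negative points lie between 137 and 665 CPM, the p150-positive sums are lowest in cerebellum in every animal drawn there, and animal 2 stands apart at 7.86 CPM.

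The mix of members was described by each one's share of the family's counts. Oasl2 gave a median of 26.6% of the family's counts in p150-negative livers, 45.9% in kidneys and 74.4% in cerebella, against 31.9%, 53.4% and 42.9% in p150-positive libraries of the same tissues. Oas1a gave a median of 21.8% in p150-negative livers, 19.4% in kidneys and 7.36% in cerebella. Both p150-negative cerebellar medians include animal 2, where Oasl2 gave 0% and Oas1a 4.65%. In the other p150-negative cerebella Oasl2 gave 69.0 to 80.1%. The share of Oasl2 in p150-positive cerebella rests on few counts, from 7 to 60 in a library. Longer transcripts give more counts, so levels between genes were compared per kb of exon. The whole exon length was used, although 57.6% of the 50-base words in Oas1a and 45.7% in Oas1g are shared. If shared reads were dropped in counting, both genes are understated per kb, and their places in the order are uncertain. Per kb, Oas1a led in p150-negative livers at 41.5 ± 20.6 CPM per kb, followed by Oasl1 at 34.5 ± 14.9, Oas1g at 19.1 ± 8.94 and Oasl2 at 14.7 ± 8.63 (SD, n = 7). In p150-negative kidneys Oas1a at 40.1 ± 12.9 and Oasl2 at 32.1 ± 17.1 CPM per kb led (n = 5). In p150-negative cerebella Oasl2 led at 49.0 ± 24.2 CPM per kb, with Oas1a next at 19.1 ± 11.0 (n = 8), or 56.0 ± 15.0 and 21.9 ± 8.49 without animal 2 (n = 7).

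Oas3 was last per kb in all 3 p150-negative tissues, at 1.89 ± 1.04 in liver, 0.798 ± 0.677 in kidney and 0.361 ± 0.273 CPM per kb in cerebellum. In each of the 6 groups all 7 pairs of neighbours in the order overlapped in range. Without animal 2, Oasl2 and Oas1a in p150-negative cerebella no longer did, and Oasl2 was above Oas1a in 7 of those 7 libraries. That separation is uncertain, since reads that Oas1a shares with Oas1g may have been dropped in counting. In p150-positive animals Oasl1 led in liver at 7.06 ± 4.62, Oas1a in kidney at 5.10 ± 3.63 and Oasl2 in cerebellum at 1.195 ± 0.759 CPM per kb.

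**Figure D3:**
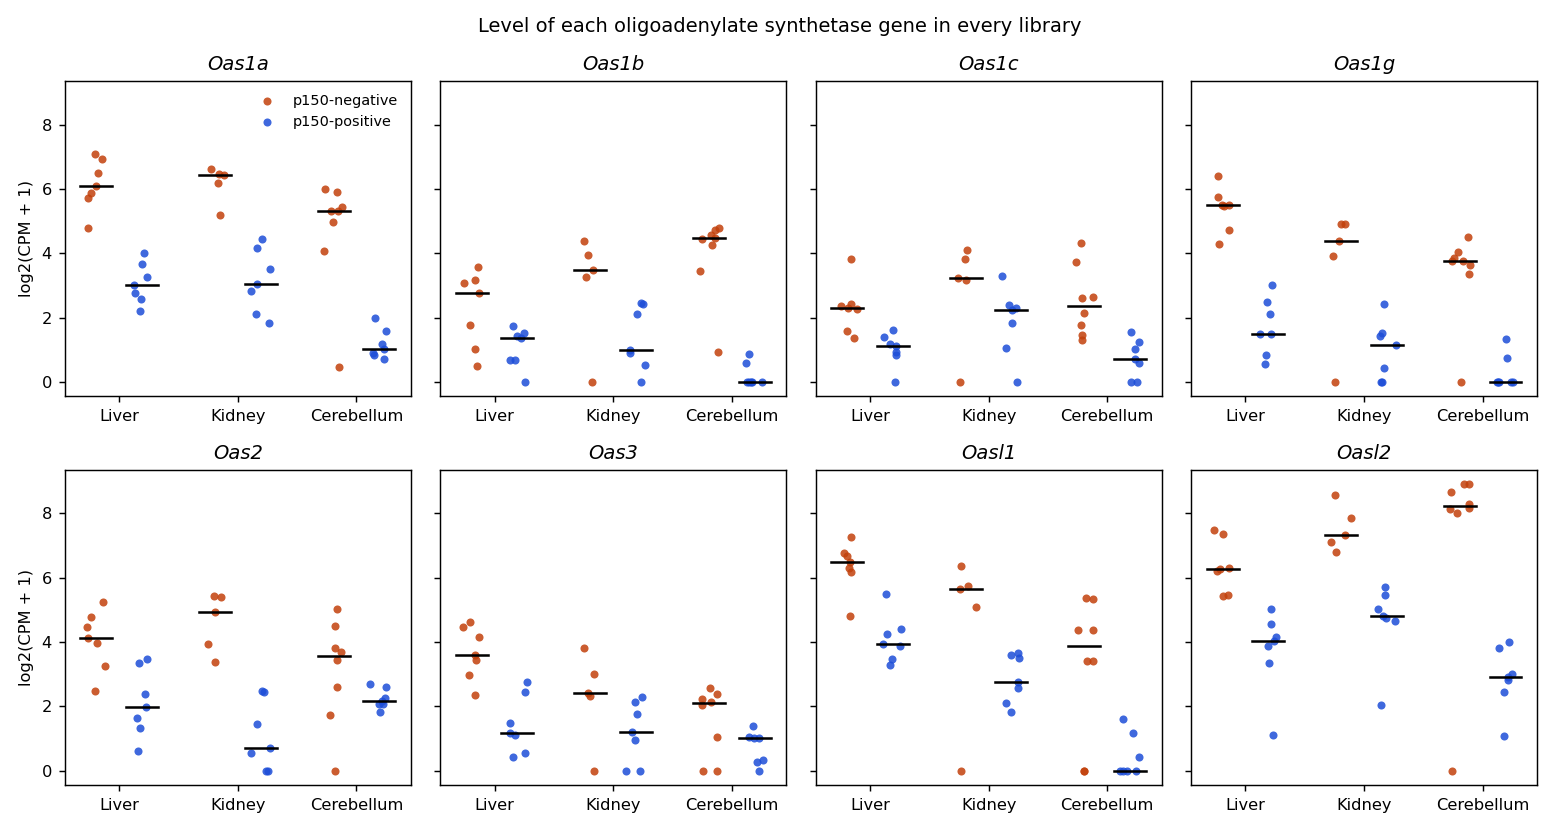
Each panel plots 1 gene in the 41 libraries used as log2(CPM + 1), with p150-negative libraries in orange left of p150-positive libraries in blue within each tissue, and black bars at the medians. Oas1a, Oas1g and Oasl2 separate in liver without overlap, Oas1a, Oas2 and Oasl2 in kidney, and in cerebellum the point of animal 2 lies with the p150-positive libraries in most panels.

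In p150-negative livers 6 of the 6 members tested rose. Oas1g, Oas1a and Oasl2 did so without overlap between the groups. The test was edgeR's quasi-likelihood test over 9843 genes with Benjamini-Hochberg adjustment, in which 683 genes, or 6.94%, rose and 4.76% fell. A gene entered the test only if it reached the minimum count in enough libraries, which members low in p150-positive animals did through the p150-negative ones. The count therefore describes the tested members, and Oas1b and Oas1c were not among them in liver.

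Oas1a, the main active Oas1 enzyme of the mouse, ranged from 26.4 to 135 CPM with a median of 67.6 in p150-negative livers, against 3.57 to 15.3 with a median of 7.09 CPM in p150-positive livers. Oas1g, its closest copy, ranged from 18.5 to 83.4 CPM (median 44.4) in p150-negative livers, against 0.465 to 7.12 CPM (median 1.83) in p150-positive livers. Every p150-negative library was above every p150-positive one for both, as for 2.45% of the genes tested. The log2 fold changes, p150-negative over p150-positive, were 3.24 ± 0.33 for Oas1a (SE; adjusted p = 1.70e-06) and 3.95 ± 0.43 for Oas1g (adjusted p = 4.12e-06). Summed, the Oas1a, Oas1b, Oas1c and Oas1g copies averaged 133 ± 60.7 CPM in p150-negative and 13.3 ± 6.28 CPM in p150-positive livers. That is a log2 fold change of 3.30 ± 0.31 (adjusted p = 7.55e-07), which does not depend on how reads were split among the copies. Any shared reads that counting dropped are missing from the sum as well.

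Oas2, which carries a pair of synthetase units, ranged from 4.52 to 37.2 CPM (median 16.4) in p150-negative livers, against 0.517 to 10.2 CPM (median 2.97) in p150-positive livers. Oas3, the longest member, with a row of synthetase units, ranged from 4.06 to 23.6 CPM (median 11.1) in p150-negative livers, against 0.339 to 5.78 CPM (median 1.25) in p150-positive livers. The groups overlapped for both, since animals 11 and 1 were lowest among the p150-negative livers for Oas2 and animal 1 for Oas3, while 5 and 6 of 7 p150-negative livers were above every p150-positive one. The log2 fold changes were 2.03 ± 0.53 (adjusted p = 0.0139) for Oas2 and 2.56 ± 0.52 (adjusted p = 0.00195) for Oas3.

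Oasl1, an Oas-like protein without synthetase activity that limits translation of Irf7 in the mouse, ranged from 26.9 to 154 CPM (median 89.1) in p150-negative livers, against 8.83 to 44.2 CPM (median 14.3) in p150-positive livers. The overlap came from p150-negative animal 1 and p150-positive animal 12, whose 44.2 CPM stood above the next p150-positive liver at 20.0 CPM. Oasl2, the Oas-like protein that keeps synthetase activity in the mouse, ranged from 42.6 to 178 CPM (median 76.1) in p150-negative livers, against 1.16 to 31.5 CPM (median 15.5) in p150-positive livers, with no overlap. Log2 fold changes were 2.29 ± 0.35 (adjusted p = 1.24e-04) for Oasl1 and 2.57 ± 0.41 (adjusted p = 2.19e-04) for Oasl2.

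Oas1b and Oas1c, an Oas1 copy without known synthetase activity, were low in liver. Oas1b ranged from 0.411 to 11.0 CPM in p150-negative livers, against 0 to 2.32 CPM in p150-positive livers, and Oas1c from 1.59 to 13.2 CPM against 0 to 2.03 CPM. In a fit with no filter, in which 3.76% of 23749 genes rose, 6 of the 8 members rose, and Oas1b and Oas1c had log2 fold changes of 1.92 ± 0.64 (adjusted p = 0.0667) and 1.86 ± 0.64 (adjusted p = 0.0749). No removal of a single library ended any of the 6 calls in liver.

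In p150-negative kidneys 4 of the 7 members tested rose: Oas1a, Oas1g, Oas2 and Oasl2. Over the 11957 genes tested in kidney 0.385% rose and 0.309% fell. Oas1a was at 35.4, 71.7, 85.4, 87.7 and 98.0 CPM in the 5 p150-negative kidneys, against 2.57 to 20.6 CPM (median 7.27) in the 7 p150-positive kidneys. Oasl2 was at 111, 138, 161, 232 and 383 CPM in p150-negative kidneys, against 3.08 to 51.4 CPM (median 26.9) in p150-positive kidneys. Both were apart without overlap, as were 0.828% of the genes tested, with the lowest p150-negative value in animal 1. Log2 fold changes were 2.87 ± 0.46 for Oas1a (adjusted p = 0.00664) and 2.62 ± 0.41 for Oasl2 (adjusted p = 0.00537), and no removal of a single library ended either call. With the identifier block, which is the leading part of each animal's name as a term in the fit, Oas1a passed, while Oasl2 (2.64 ± 0.49, adjusted p = 0.0549), Oas1g (3.44 ± 0.66, adjusted p = 0.0549) and Oas2 (3.79 ± 0.80, adjusted p = 0.0823) did not. None of the 4 passed when all labelled libraries were kept, those without kidney identity genes included (adjusted p from 0.655 to 0.882).

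Oas2 was at 9.43, 14.3, 29.8, 40.9 and 41.8 CPM in p150-negative kidneys, against 0 to 4.62 CPM (median 0.615) in p150-positive kidneys, again without overlap. Oas1g was at 0, 14.0, 20.0, 29.1 and 29.4 CPM in p150-negative kidneys, against 0 to 4.39 CPM (median 1.23) in p150-positive kidneys. The 0 is that of animal 3, the shallow library, and the other 4 were above every p150-positive kidney. The log2 fold changes were 4.04 ± 0.80 for Oas2 (adjusted p = 0.0258) and 3.79 ± 0.77 for Oas1g (adjusted p = 0.0293). Both calls depended on single libraries. That of Oas2 was lost without animal 4, 6, 7, 8, 10 or 16 (adjusted p up to 0.0898), and that of Oas1g without animal 1, 4, 6, 7, 8, 9, 10, 13 or 16 (adjusted p up to 0.1099); without animal 15 Oas1g was below the filter. The log2 fold changes stayed between 3.74 and 4.60 for Oas2 and between 3.51 and 4.03 for Oas1g.

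Oasl1 was at 0, 32.9, 49.0, 52.5 and 80.9 CPM in p150-negative kidneys, against 2.57 to 11.5 CPM (median 5.71) in p150-positive kidneys, with the 0 again in animal 3. Its log2 fold change of 2.61 ± 0.58 did not pass (adjusted p = 0.0521); it passed without animal 3 (2.88 ± 0.40, adjusted p = 0.00213) and without p150-positive animal 5 (2.79 ± 0.55, adjusted p = 0.0233). Oas1b was at 0, 8.57, 10.2, 14.4 and 19.7 CPM in p150-negative kidneys, against 0 to 4.51 CPM in p150-positive kidneys, and did not pass (2.34 ± 0.66, adjusted p = 0.157). It passed without animal 3 (2.53 ± 0.60, adjusted p = 0.0479). Oas1c, at 0 to 16.3 CPM against 0 to 8.91 CPM, gave 1.44 ± 0.64 (adjusted p = 0.548). Oas3, at 0 to 13.0 CPM in p150-negative and 0 to 3.90 CPM in p150-positive kidneys, was not tested.

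With no filter, 5 of the 8 members rose in kidney, with Oasl1 (2.61 ± 0.54, adjusted p = 0.0126) beside the 4 above, where 0.344% of 26470 genes rose. Oas3 then had a log2 fold change of 1.67 ± 0.76 (adjusted p = 0.463). The Oas1 copies summed to 114 ± 35.2 CPM in p150-negative and 16.6 ± 11.9 CPM in p150-positive kidneys, a log2 fold change of 2.70 ± 0.45 (adjusted p = 0.00777).

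In p150-negative cerebella 4 of the 5 members tested rose, Oas1a, Oas1b, Oas1g and Oasl2, and the same 4 did so without animal 2. Over the 13146 genes tested in cerebellum 0.723% rose and 0.274% fell, and 0.869% of 12998 without the library of animal 2. Oasl2 ranged from 257 to 482 CPM (median 311) in the 7 p150-negative cerebella other than that of animal 2, against 1.12 to 15.0 CPM (median 6.50) in the 7 p150-positive cerebella. Oas1a ranged from 15.9 to 62.4 CPM (median 39.2) in those 7, with 0.366 CPM in animal 2, against 0.640 to 2.98 CPM (median 1.04) in p150-positive cerebella. The groups were far apart but for animal 2, which lay below every p150-positive cerebellum in both genes. The log2 fold changes were 5.35 ± 0.78 for Oasl2 (adjusted p = 6.53e-04) and 4.65 ± 0.67 for Oas1a (adjusted p = 6.26e-04), or 5.54 ± 0.39 (adjusted p = 9.16e-08) and 4.85 ± 0.40 (adjusted p = 4.99e-07) without animal 2.

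Oas1b, the pseudogene allele, ranged from 9.85 to 26.6 CPM (median 21.2) in the 7 p150-negative cerebella other than animal 2, which had 0.915 CPM, against 0 to 0.812 CPM in p150-positive cerebella, of which 5 of 7 had 0. Oas1g ranged from 9.25 to 22.0 CPM (median 12.7) in those 7, with 0 in animal 2, against 0 to 1.498 CPM in p150-positive cerebella, again with 5 of 7 at 0. Oas1b was the only member with no overlap when animal 2 was kept, as were 0.228% of genes. That gap was 5 counts in animal 2 against 3 counts in p150-positive animal 6, so it rests on few counts. Without animal 2, Oas1a, Oas1b, Oas1g and Oasl2 had no overlap, as had 0.89% of genes. Log2 fold changes were 6.35 ± 0.81 for Oas1b (adjusted p = 2.36e-04) and 5.13 ± 0.96 for Oas1g (adjusted p = 0.00766), against 5 and 8 counts in all p150-positive cerebella, so their size rests on few counts. Without animal 2 they were 6.53 ± 0.65 (adjusted p = 4.56e-06) and 5.33 ± 0.75 (adjusted p = 3.02e-04). Leaving out single libraries gave 6.04 to 7.25 for Oas1b, the highest without p150-positive animal 6, and 4.84 to 6.58 for Oas1g, the highest without p150-positive animal 5. Both genes fell below the filter when any of the p150-negative libraries of animals 1, 3, 8, 9, 11, 14 or 16 was left out, and the count of members that rose was then 2.

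Oas2 was the tested member that did not pass in cerebellum. It ranged from 0 to 31.7 CPM (median 11.9) in the 7 p150-negative cerebella other than animal 2, which had 5.12 CPM, against 2.57 to 5.52 CPM (median 3.50) in p150-positive cerebella, and the groups overlapped. Its log2 fold change was 1.62 ± 0.57 (adjusted p = 0.297), or 1.74 ± 0.58 (adjusted p = 0.264) without animal 2. Oasl1 ranged from 0 to 40.2 CPM (median 19.7) in those 7 p150-negative cerebella, with 0 in animal 2 and in the shallow library of animal 11, against 0 to 2.07 CPM in p150-positive cerebella. Oas3 ranged from 0 to 4.96 CPM against 0 to 1.599 CPM, and Oas1c from 1.46 to 19.1 CPM against 0 to 1.92 CPM over all 8 and 7 libraries.

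Oasl1, Oas3 and Oas1c were below the filter in cerebellum. With no filter, where 0.343% of 30607 genes rose, Oasl1 rose by 5.05 ± 0.97 (adjusted p = 0.00587), while Oas1c (2.85 ± 0.81, adjusted p = 0.173) and Oas3 (1.74 ± 0.90, adjusted p = 0.452) did not pass. The size for Oasl1 rests on few counts, at most 6 in a p150-positive cerebellum. With no filter the count was 5 of the 8 members. Without animal 2 it was also 5 of 8, with 5.25 ± 0.82 for Oasl1 (adjusted p = 3.01e-04), 3.00 ± 0.80 for Oas1c (adjusted p = 0.113) and 1.94 ± 0.83 for Oas3 (adjusted p = 0.372). The Oas1 copies summed to 72.7 ± 35.5 CPM in p150-negative and 2.65 ± 1.17 CPM in p150-positive cerebella, a log2 fold change of 4.73 ± 0.56 (adjusted p = 1.61e-04). Without animal 2 the p150-negative mean was 82.7 ± 23.3 CPM and the log2 fold change 4.92 ± 0.32 (adjusted p = 4.62e-08). Means were also compared within the 4 parts of the animal identifiers that hold both genotypes, of which kidney had 3. Every member's mean was higher in p150-negative animals in each part and tissue, except Oas2 in cerebellum (3 of 4). Where compared, the parts AA and AS held 1 library of each genotype per tissue. Some gaps were small and on few counts, as for Oas1c in livers of part P094 (1.81 against 1.27 CPM).

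**Figure D4:**
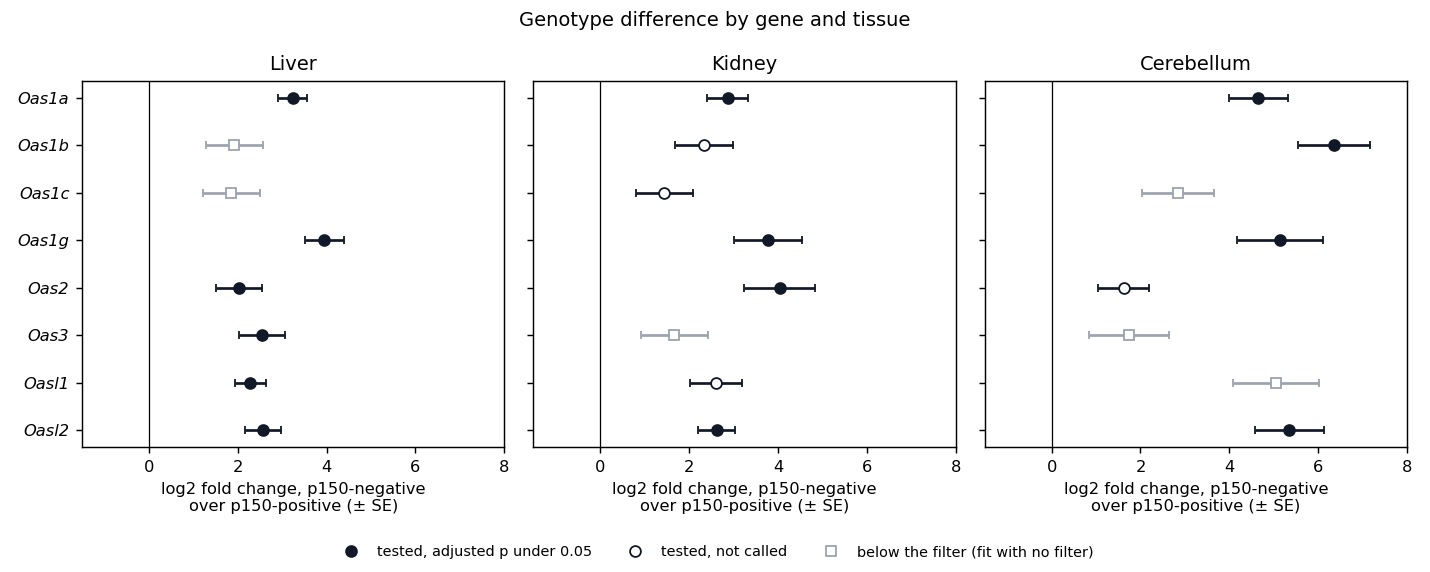
Log2 fold changes, p150-negative over p150-positive, with SE bars, are plotted for the 8 members in each tissue, with filled circles for adjusted p under 0.05, open circles for genes tested and not called, and grey squares for genes below the filter, from the fit with no filter. Cerebellum holds the largest values, led by Oas1b at 6.35, and every point lies to the right of 0.

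In the fits with no filter, the 8 members had a median log2 fold change of 2.38 in livers, 2.61 in kidneys and 4.83 in cerebella (5.03 without animal 2). The median over all genes in the same fits was -0.01, -0.03 and 0.05 (0.04 without animal 2). Whether the genotype difference itself differed between tissues was tested by the interaction of genotype and tissue, given as the log2 fold change of the first tissue named minus that of the other. Between liver and cerebellum 1 of 8 members passed, Oas1b, at -4.30 ± 1.06 (adjusted p = 0.0185), with the smaller genotype difference in liver; 2.67% of genes passed in that comparison. Oasl2, at -2.77 ± 0.87 (adjusted p = 0.0873), and Oasl1, at -2.85 ± 1.03 (adjusted p = 0.148), did not. Without animal 2, 3 of 8 passed, where 2.72% of genes did: Oas1b at -4.47 ± 0.95 (adjusted p = 0.00530), Oasl2 at -2.96 ± 0.58 (adjusted p = 0.00232) and Oasl1 at -3.05 ± 0.86 (adjusted p = 0.0477).

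The same animals gave both tissues, and with the animal as a replicate block the call of Oas1b between liver and cerebellum was lost (-5.29 ± 1.28, adjusted p = 0.05002), while Oasl2 passed (-3.10 ± 0.31, adjusted p = 2.17e-05). Between kidney and cerebellum 0 of 8 members passed by edgeR's test (4 had an unadjusted p under 0.05), where 0.114% of genes did; without animal 2 Oasl2 passed at -3.01 ± 0.58 (adjusted p = 0.0108), with the smaller difference in kidney, where 0.222% of genes did. Between liver and kidney 0 of 8 passed by edgeR's test (1 had an unadjusted p under 0.05), where 1.5% of genes did, and the differences ran from -2.02 ± 0.93 for Oas2 (adjusted p = 0.475) to 0.91 ± 0.93 for Oas3 (adjusted p = 0.912).

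With p150 present, members that passed the filter were compared between tissues, as liver minus kidney, liver minus cerebellum and kidney minus cerebellum. Oasl1 was higher in liver than in kidney by 2.24 ± 0.55 on the log2 scale (adjusted p = 0.00138) and than in cerebellum by 5.95 ± 0.70 (adjusted p = 4.00e-08). Oas1a was higher in liver than in cerebellum by 3.31 ± 0.50 (adjusted p = 2.23e-06) and in kidney than in cerebellum by 2.70 ± 0.49 (adjusted p = 4.02e-05), while liver and kidney differed by 0.61 ± 0.44 (adjusted p = 0.273). Oasl2 was higher in liver and in kidney than in cerebellum, by 1.81 ± 0.53 (adjusted p = 0.00381) and 1.88 ± 0.52 (adjusted p = 0.00309). Oas2 was higher in liver than in kidney by 2.404 ± 0.72 (adjusted p = 0.00790). Most genes differ between organs: 47.5% of genes tested passed between liver and kidney, 70.2% between liver and cerebellum and 63.3% between kidney and cerebellum, beside 2, 3 and 3 of 4 members tested. Kidney against cerebellum gave 3.71 ± 0.69 for Oasl1 (adjusted p = 5.31e-05). Oasl1 had a median of 0 and at most 6 counts in p150-positive cerebella, so the size of its differences from cerebellum rests on few counts.

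Of the partner genes and remaining Oas1 copies described here none passed between genotypes in any tissue by edgeR's test, and 1 had an unadjusted p under 0.05, Abce1 in cerebellum. Abce1, whose product splits ribosomes after translation, gave -0.04 ± 0.20 in liver, 0.12 ± 0.45 in kidney and -0.67 ± 0.28 in cerebellum (adjusted p = 0.428 in the last). Pde12 and Akap7, whose products can cleave the chains, gave values between -0.37 ± 0.19 (Akap7 in cerebellum, adjusted p = 0.5495) and 0.47 ± 0.43 (Akap7 in liver, adjusted p = 0.578). Oas1d, Oas1e, Oas1f and Oas1h were at or near 0 in every group and were not tested, the highest being Oas1f at 3.08 CPM in a p150-positive kidney. The list of partners and other copies thus gave 0 of 3 tested genes called in liver, 0 of 3 in kidney and 0 of 3 in cerebellum.

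The genes that carry the interferon signal gave 3 of 11 tested higher in liver, 2 of 11 in kidney and 5 of 12 in cerebellum, and none lower. The cerebellum count was also 5 of 12 without animal 2. Over all genes tested 6.94% rose in liver, 0.385% in kidney and 0.723% in cerebellum, or 0.869% there without animal 2. Irf7, the factor that amplifies interferon production, rose in all 3 tissues, by 2.63 ± 0.31 in liver (adjusted p = 7.70e-06), 2.33 ± 0.34 in kidney (adjusted p = 0.00405) and 4.46 ± 0.61 in cerebellum (adjusted p = 4.11e-04). So did Usp18, which removes ISG15 from proteins and dampens the receptor, by 1.99 ± 0.26 (adjusted p = 2.39e-05), 2.80 ± 0.51 (adjusted p = 0.0136) and 5.37 ± 0.64 (adjusted p = 1.83e-04) in the same tissues. Irf9 rose in liver (0.89 ± 0.23, adjusted p = 0.0119) and cerebellum (3.51 ± 0.50, adjusted p = 6.26e-04). Stat2 (1.45 ± 0.26, adjusted p = 0.00568) and Eif2ak2, the gene of the double-stranded RNA sensor PKR (2.44 ± 0.41, adjusted p = 0.00249), rose in cerebellum. The receptor genes Ifnar1 and Ifnar2 did not pass in any tissue; their values ran from -0.43 ± 0.37 (Ifnar1, cerebellum, adjusted p = 0.778) to 0.44 ± 0.16 (Ifnar2, liver, adjusted p = 0.0966). Adar gave -0.59 ± 0.34 in liver, -0.31 ± 0.51 in kidney and 0.435 ± 0.31 in cerebellum, with adjusted p of 0.3175, 0.973 and 0.723 in the same order.

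Most markers of neutrophils and of monocytes and macrophages were also higher in p150-negative livers, while those of lymphocytes did not pass. Summed over 10 neutrophil markers, p150-negative livers had 451 to 1670 CPM and p150-positive livers 27.3 to 176 CPM, and 9 of 9 tested rose. Summed over 10 monocyte and macrophage markers they had 1280 to 2978 CPM and 371 to 828 CPM, and 9 of 10 tested rose. Over all genes tested in liver 6.94% rose, and markers low in p150-positive livers entered the test through the p150-negative ones. With no filter 10 of 10 neutrophil and 9 of 10 monocyte and macrophage markers rose, where 3.76% of 23749 genes did. Of lymphocyte markers 0 of 2 tested passed by edgeR (2 at an unadjusted p under 0.05), with sums of 13.6 to 56.2 CPM in p150-negative and 2.97 to 24.2 CPM in p150-positive livers. No marker of these lists was at 0 in all libraries of a liver group. The part of these cells in the rise of the members in liver was not tested.

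In kidney the neutrophil sum was 126 to 250 CPM in p150-negative and 9.86 to 81.6 CPM in p150-positive animals, with 1 of 4 tested markers higher, S100a8. The monocyte and macrophage sum was 167 to 566 CPM against 115 to 275 CPM, with 0 of 7 higher and 3 at an unadjusted p under 0.05 by edgeR. The lymphocyte sum was 0 to 37.1 CPM against 3.64 to 45.4 CPM, with 0 of 2 called at either level of p. In cerebellum 0 of 7 neutrophil and 0 of 6 monocyte and macrophage markers passed by edgeR (3 and 4 at an unadjusted p under 0.05; without animal 2 Lyz2 passed), with sums of 47.7 to 377 CPM and 116 to 360 CPM in p150-negative animals, against 28.4 to 99.4 CPM and 82.3 to 175 CPM in p150-positive animals. Clec4f was at 0 in both cerebellum groups, and Marco and Cxcr2 in the p150-positive cerebella. No lymphocyte marker was tested in cerebellum, where the sum was 0 to 4.97 CPM in p150-negative and 3.25 to 10.7 CPM in p150-positive animals. Of 8 microglial markers in cerebellum 2 rose, C1qa (1.24 ± 0.21, adjusted p = 0.00305) and C1qb (1.08 ± 0.20, adjusted p = 0.00583), and the sum was 237 to 593 CPM in p150-negative and 194 to 324 CPM in p150-positive animals. Over all genes tested 0.385% rose in kidney and 0.723% in cerebellum. The part of these cells in kidney and cerebellum was not tested.

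The genes whose levels across the 41 libraries (16 animals) were most like the family's sum were Isg15, Ifit1, Rtp4, Ifit3, Xaf1, Ddx60, Ifi27 and Irf7. Likeness was the root mean square difference between centred log2 levels, over 8733 genes tested in all 3 tissues. It was 0.648 for Isg15, 0.705 for Ifit1 and 0.921 for Irf7, the last of the 8, where the ninth gene had 0.922 and the median of all genes was 2.35. Isg15, the ubiquitin-like protein that Usp18 removes, averaged 185 ± 88.3 CPM in p150-negative and 36.0 ± 30.1 CPM in p150-positive livers. In cerebellum it averaged 80.7 ± 44.0 CPM in p150-negative and 5.17 ± 2.86 CPM in p150-positive animals. Ifit1, which binds RNA lacking the host's cap mark, averaged 313 ± 151 CPM in p150-negative and 9.16 ± 6.36 CPM in p150-positive cerebella.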

How the data were processed

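Per the labels, total RNA of liver, kidney and cerebellum was made into Nextera XT libraries, a kit that does not mark strand, and the authors deposited raw read counts per gene in a single table, with no normalization. Per the submitters' processing notes, STAR 2.4.2a, HTSeq 0.4.1, Picard 1.134, SAMtools 1.2, FastQC 0.11.3 and the build GRCm38 (mm10) were used; whether counting used strand is not given in the sources used here. Of 53471 entries 6 repeat an identifier, which leaves 53465 genes, and 99.64% of identifiers stand in GENCODE M21. Every column was matched to a sample.

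Groups, tissues and animals follow the labels. Columns numbered 4, 5, 20, 31 and 34 were left out because they lack the identity genes of the tissue on their label. Genotypes were compared tissue by tissue by the quasi-likelihood test of edgeR 4.0.16 (R 4.3.3, limma 3.58.1), with TMM normalization, a minimum count of 10 in as many libraries as the smaller group and a total of 15, and a threshold of 0.05 on p after Benjamini-Hochberg adjustment across every gene tested. Tissues were compared by interaction terms, and in p150-positive animals directly. CPM divides a count by its library's total and carries no TMM factor. Fold changes have SE from the test statistic. The fit that compares genotypes within a tissue was tested on simulated counts. Tables and figures used Python 3.11.15, pandas 2.3.3, numpy 2.4.6 and matplotlib 3.10.9.

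The members, lists and tests were chosen with earlier results of these data known. Named genes are all members, all partners and interferon signalling genes on fixed lists, of which examples are printed and some are not reported here, and the 8 genes most like the family's sum. Likeness used log2 CPM with a prior count of 2.

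Libraries of an animal are paired across tissues by the labels. Their deviations from group means correlated between -0.02 and 0.245 for liver and kidney (11 animals), -0.006 and 0.259 for liver and cerebellum (13), and -0.189 and 0.216 for kidney and cerebellum (11). Alternatives were all labelled libraries, RLE factors, DESeq2 1.42.0, no filter, a minimum count of 30, summed Oas1 copies, a block by identifier (the leading part of the animal's name), Xist as a covariate, leaving out shallow libraries or each library in turn, and the animal as a replicate block.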

Additional observations from a re-analysis of the deposited data

Results flagged for a closer look

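In 4 of 48 groups the highest or lowest library stood far from the rest by Dixon's criterion. Chance meets it in about 1 in 20 groups if values are normally distributed and groups independent. The criterion was applied to CPM without logs, some groups lie near 0, and Oas1a and Oas1g share reads. That rate may therefore not hold here. Oasl2 had 0 CPM in the p150-negative cerebellum of animal 2, where the next lowest had 257 CPM. Oas1c had 13.2 CPM in the p150-negative liver of animal 16, where the next had 4.41 CPM; that library is the shallowest liver. Oasl1 had 44.2 CPM in the p150-positive liver of animal 12, where the next had 20.0 CPM. Oas1g had 4.39 CPM in the p150-positive kidney of animal 15, where the next had 1.88 CPM.

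The genotype difference of Oas1b was smaller in liver than in cerebellum by an interaction test, at -4.30 on the log2 scale (adjusted p = 0.0185 by edgeR's quasi-likelihood test). That call was lost with the animal as a replicate block (-5.29, adjusted p = 0.05002) and with all labelled libraries (-3.62, adjusted p = 0.0822).

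Among the libraries left out, 3 labelled kidney had a summed level of the 8 members above the highest p150-positive kidney used, 96.2 CPM. It was 262 CPM in that of p150-negative animal 2, 2653 CPM in that of p150-negative animal 11 and 665 CPM in that of p150-positive animal 12. These libraries lack the kidney's identity genes, so the values are not those of kidney.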

How the results depend on the processing

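Of 525 values of single genes under alternatives, over 54 results, 480 kept their direction and side of the threshold, 27 lost a call, 13 gained one and 5 turned direction. In liver all 6 calls held under each alternative in which the member could be tested, except Oas2 with all labelled libraries (adjusted p = 0.167 by edgeR), where 740 genes were called in place of 1152. In kidney 4 members were called; all labelled libraries gave 0, a minimum count of 30 gave 2 (Oas1g and Oas2 were then untested), the identifier block gave 1 (Oas1a), and leaving out a library gave 2 to 6. Of all genes 83 were called in kidney, 1 with all labelled libraries, 306 with DESeq2, 141 with no filter, 32 with the identifier block, 211 without the library of animal 3 and 34 to 211 without a library. Oas2 was also lost with Xist as a covariate (adjusted p = 0.0544), and Oasl1 was called with RLE factors (0.0447), DESeq2 (4.48e-04) and no filter (0.0126). In cerebellum 4 members were called, 2 with all labelled libraries, 2 without the shallow library of animal 11 and 2 to 5 without a library; where 2, Oas1b and Oas1g were below the filter. DESeq2 called 290 genes in cerebellum in place of 131.

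Between tissues, liver and kidney differed in the genotype effect of 1.5% of genes, 71 genes with all labelled libraries and 119 with the animal as a replicate block, and the value of Oasl2, -0.01, was 0.31 and 0.49 under these. Liver and cerebellum gave 1 member, 0 with all labelled libraries and 3 without animal 2, and 376 genes, 196 with the replicate block. Kidney and cerebellum gave 0 members, 1 without animal 2, and 17 genes, 31 with no filter, 9 with the replicate block and 33 without animal 2. There Oas3, at -0.11, was 0.12 with all labelled libraries. In p150-positive animals, all labelled libraries left 0 of 2 members called between liver and kidney, with Oas1a at -0.57 in place of 0.61 and Oasl1 at -0.22 in place of 2.24. With no filter 6 of the 8 members, in place of 3 of 4 tested, were called between liver and cerebellum. Between kidney and cerebellum 5 of the 8 were, in place of 3 of 4. With the filter 70.2% and 63.3% of all genes tested passed in these comparisons. The share with no filter is not given here, so these counts are no result about the members. The replicate block changed no other call of a member. The labelled libraries hold those of other organs, and fewer genes are tested with a stricter filter; the causes of other shifts were not tested. Depth limits Oas1b, Oas1c and Oas3, which held few counts and were below the filter in 1 or more tissues.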
